A study of Mus musculus with 4 samples.

Results

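Imprinted genes are expressed from only 1 of the 2 parental copies, and 36 of them were listed for this description of age and DNA signal in mouse intestine. Of the 36 listed genes, 32 had probes on the arrays under their listed names. Their probes were those whose gene name in the scanner files, after removal of a trailing distance and with shared names such as Peg3-Usp29 included, was a listed gene. This gave 199 of 83122 probes. Neighbouring probes of 1 gene name at most 1000 bp apart formed a region, and the regions of a gene were kept apart, which gave 42 of 19134 regions. Snrpn, Magel2, Calcr and Trappc9 had no probe under those names.

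The study compared DNA from the intestine of old and young mice to describe age-related DNA methylation. The older sample was intestine of C57BL/6 mice (Jackson Laboratories) aged 32 months, labelled with Cy5 (red), and the younger was intestine of C57BL/6 mice aged 3 months, labelled with Cy3 (green). Each pair was hybridised to 2 custom Agilent arrays that hold mostly different chromosomes, with probes of chromosome 9 on both. Every array carried 1 sample of either age, and the labels name no dye swap. Here the imprinted genes of chromosomes 2, 6 and 7 lay on the first array and those of chromosomes 9, 10, 11, 12, 15, 17 and 18 on the second. The sources used here do not give the genome build, the number and sex of the animals or the step that selected DNA by its methylation, so differences are described as differences in signal and not as gain or loss of methylation. Age and dye cannot be told apart in this design, and no test between the ages was possible. These are DNA arrays, so the tissue label could not be checked against the expression of marker genes.

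In imprinting, DNA methylation laid down in the egg or the sperm marks 1 parental copy of a control region, is kept through the reprogramming of the early embryo and is read in body cells as expression from 1 parental copy. A mature control region is therefore methylated on 1 copy and unmethylated on the other. Imprinted genes lie in clusters and include growth factors, their antagonists, placental nutrient transporters and regulators of the brain. Which region on these arrays covers the control region of a gene was not mapped as a whole. Some probes were placed in promoter windows, including that of Zrsr1, but roles below are those of the gene and not of the probes.

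The sequences shown first are those of the called promoter regions of Grb10 and Igf2r and of Cdkn1c, which was bright at every probe. Capitals mark CpG, the dinucleotide at which mouse DNA is methylated. The probes of Grb10 region 2 lie at 11937756 to 11938375 on chromosome 11, annotated as promoter in the files. Those of Igf2r lie at 12613315 to 12613626 on chromosome 17, also annotated as promoter. Probes 4 and 7 of Cdkn1c are both annotated as promoter. Positions are those of the files, whose build is not stated.
Grb10 region 2 probe 1: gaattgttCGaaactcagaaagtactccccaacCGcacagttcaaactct
Grb10 region 2 probe 2: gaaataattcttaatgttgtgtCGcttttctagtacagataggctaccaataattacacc
Grb10 region 2 probe 3: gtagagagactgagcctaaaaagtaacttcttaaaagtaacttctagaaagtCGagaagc
Igf2r probe 1: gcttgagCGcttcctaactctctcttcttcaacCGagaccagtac
Igf2r probe 2: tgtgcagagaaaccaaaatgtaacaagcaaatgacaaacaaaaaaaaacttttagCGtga
Cdkn1c probe 4: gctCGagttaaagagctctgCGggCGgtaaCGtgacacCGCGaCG
Cdkn1c probe 7: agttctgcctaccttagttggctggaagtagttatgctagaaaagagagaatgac
The probes of Grb10 region 2 hold 2, 1 and 1 CpG and those of Igf2r 2 and 1. Cdkn1c probe 4 holds 7 CpG and Cdkn1c probe 7 holds 0.

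Matching probe letters to the RefSeq promoter windows of GRCm38.p6 (250 bases before to 50 after each start site) placed 19 member probes in the window of their own gene. For Dio3 the second probe lies from base -58 to base -11 before the start site. Below are the 250 bases before the start sites of Dio3 (chr12:110278980-110279229, plus strand) and Peg3 (chr7:6730420-6730669, minus strand), with the probe in capitals. The Dio3 window is shown because its probe had the largest ratio of any member probe, and the Peg3 window because its probe lies between Peg3 and Usp29, at the shared promoter of that cluster.
Dio3 promoter: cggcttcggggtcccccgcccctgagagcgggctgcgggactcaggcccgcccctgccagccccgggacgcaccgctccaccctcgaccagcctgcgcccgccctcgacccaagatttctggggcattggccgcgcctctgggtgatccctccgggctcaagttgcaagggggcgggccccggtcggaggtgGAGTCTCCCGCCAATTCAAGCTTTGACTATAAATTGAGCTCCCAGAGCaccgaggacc
Peg3 promoter: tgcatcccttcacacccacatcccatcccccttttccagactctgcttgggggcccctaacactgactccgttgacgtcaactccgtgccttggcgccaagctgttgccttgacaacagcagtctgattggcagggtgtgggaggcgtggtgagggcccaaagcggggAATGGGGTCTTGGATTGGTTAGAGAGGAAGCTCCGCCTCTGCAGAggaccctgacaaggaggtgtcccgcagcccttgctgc
The 250 bases of Dio3 hold 21 CpG and those of Peg3 hold 8. Over the whole 300 bases Dio3 holds 25 CpG, against a median of 7 over 32851 RefSeq windows, of which 18.4% hold at least as many.

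Signals are the scanner's processed intensities, and each ratio below is the log2 of 32-month over 3-month signal minus the median of its array. Usable probes were those well above background at 1 age at least, and a measured region had at least 2 of them. Of the 199 member probes 159 were usable and 1 carried an outlier flag, and 40 of the 42 regions were measured. The value of a region is the median over its usable probes, and its SD is over probes, which share 1 sample and are not replicates. Brightness is the percentile of a probe's signal among all unflagged probes of its array at that age, and the median over probes for a region. Levels of different probes also depend on their own sequences, so ratios are compared between probes and levels between ages only. Shares of bright regions, given below, are descriptions that carry this limit. Where the probe that sets a regional median was above background at 1 age only, the median is a bound for the processed signals.

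Of the 40 measured imprinted regions, 28 had a log2 ratio within 0.5 of 0, and 4 were called higher at 32 months. A higher call needed a regional log2 ratio of 1 or more with all usable probes above 0, and a lower call -1 or less with all of them below 0. By that rule 4 of 40 measured imprinted regions (10%) were called higher, against 309 of 15352 measured regions of all genes (2.01%). The listed genes were chosen with earlier results of these data known, so the shares describe the list and do not test it. None of the 40 was called lower, against 97 regions of all genes (0.632%, and 0.677% on the second array). At a 1.5-fold threshold 6 of the 40 were higher, beside 4.42% of all regions, and 3 were lower, beside 2.24%. With no demand that probes agree, 5 were higher, beside 2.98% of all regions. The called regions were Grb10 region 2, Dio3, Igf2r and Zrsr1, which come from 4 different clusters on chromosomes 11, 12 and 17.

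All 4 called regions lay on the second array. There 4 of 15 imprinted regions (26.7%) were called higher, beside 2.64% of all regions of that array. On the first array 0 of 25 were called, beside 1.36% of all its regions. Whether the array or the clusters on it set this split was not tested, and the choice of the listed genes bears on these shares too.

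Over the 40 measured regions the median log2 ratio was 0.065, against 0.015 over all measured regions. The medians of 23 regions lay above 0 and those of 17 below, and 28 lay within 0.5 of 0. The share of all regions within 0.5 of 0 is not given here, so that count has no comparison. The list as a whole was thus close to the middle of the arrays, with a few regions far above it. Of the 159 usable member probes, 16 had a log2 ratio of at least 1 (10.1%, against 6.35% of all usable probes) and 4 had one of at most -1 (2.52%, against 3.35%).

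**Figure D1:**
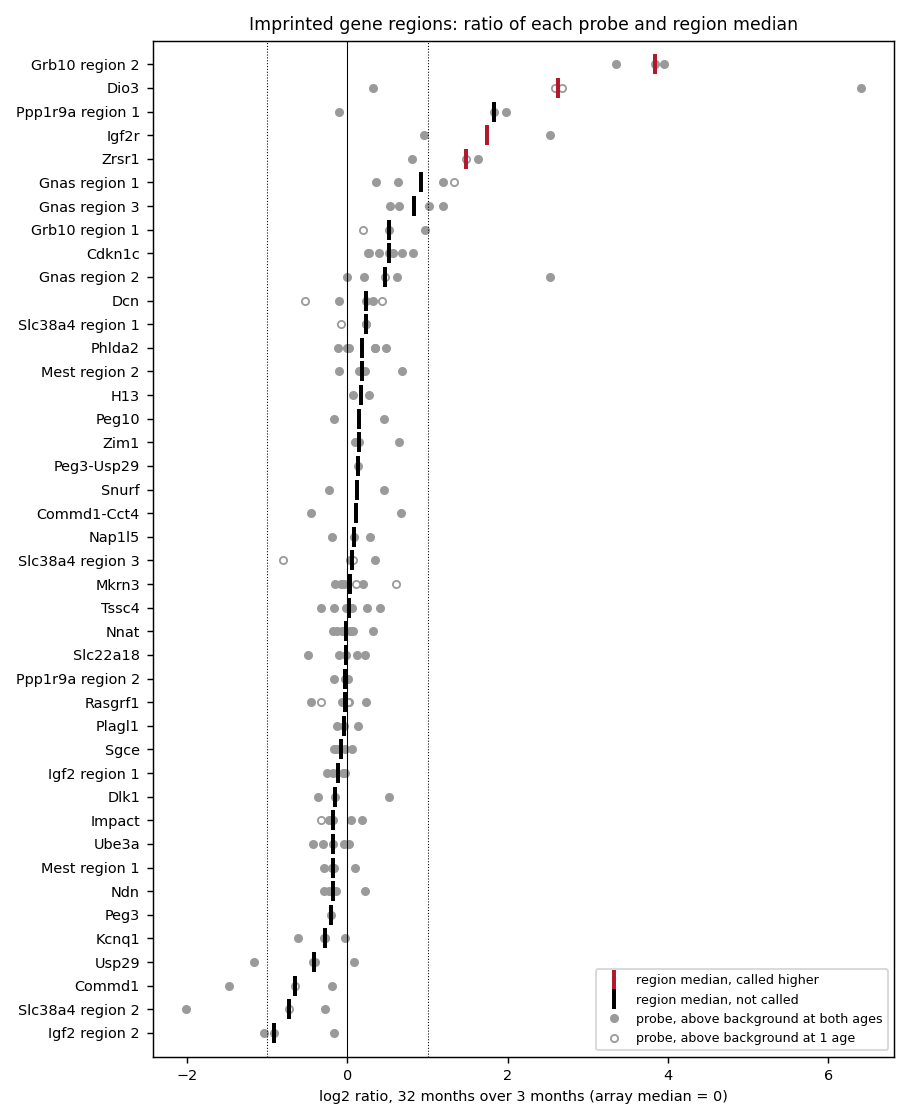
Log2 ratio of 32-month over 3-month signal, array median set to 0, for each usable probe (dots, open where only 1 age was above background) and for each imprinted gene region (bars at the median over probes, red where called higher). Dotted lines mark -1 and 1. Grb10 region 2 sits far right with all 3 probes between 3.35 and 3.94, while 28 of the 40 measured regions lie within 0.5 of 0.

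Grb10 encodes an adaptor protein that binds insulin and insulin-like growth factor receptors and restrains growth. In region 2, annotated as promoter, the first probe gave 521000 at 32 months and 37300 at 3 months. The second gave 726000 at 32 months and 56200 at 3 months, and the third 271000 and 29200 at the same ages. Every probe was thus several-fold brighter at 32 months, and all were already among the brightest of the array at 3 months. The log2 ratios were 3.94, 3.83 and 3.35, with a median of 3.83 (SD over 3 probes 0.31), a 14.2-fold difference. That value ranked 34 from the top among 15352 measured regions and was the highest of the imprinted regions. The brightness percentile of the region was 99.8 at 32 months and 98.4 at 3 months.

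The other Grb10 region, inside the gene at 11927926 to 11928899, was not called. Its first probe overlaps a RefSeq start site of Grb10, from base -10 to base 48, and gave 142 at 32 months and 109 at 3 months. The other usable probes gave 336 and 67.3 at 32 months, against 189 and 64.5 at 3 months, the last not well above background in the younger sample. Their log2 ratios of 0.52, 0.97 and 0.20 gave a median of 0.52 (SD 0.39), which was -0.12 with normexp, a background correction with an offset. Normexp starts from the mean signals, so it also leaves out the scanner's scaling between dyes. The remaining probe of region 1 carried the outlier flag and was left out. It gave 57600 at 32 months and 62600 at 3 months, a log2 ratio of 0.02. The large difference at Grb10 was therefore found in region 2, while in region 1 the usable probes were higher at 32 months by smaller ratios and no call was made.

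Dio3 encodes the type 3 deiodinase, which inactivates thyroid hormone, and lies at the far end of the cluster that starts with Dlk1. Its first probe, upstream in the promoter, gave 538 at 32 months and 474 at 3 months, a log2 ratio of 0.32. The second, whose letters are printed above just before the start site, gave 354000 at 32 months and 4610 at 3 months, a log2 ratio of 6.40. Probes 3 and 4, inside the gene, gave 406 and 372 at 32 months, against 70.2 and 68.1 at 3 months. These last were not well above background at 3 months, so on the centred scale they were at least 6.37-fold and at least 6.02-fold higher at 32 months. Normexp gave these probes smaller log2 ratios, 0.59 and 0.62. In the main setting the median over the 4 probes was 2.63 (SD 2.52). It is the mean of probes 3 and 4 and so is itself a bound.

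The probes of Dio3 thus differed greatly among themselves, with ratios from 0.32 to 6.40. The percentile of the probe next to the start site was 99.7 at 32 months and 92.1 at 3 months. With normexp the median of Dio3 was 0.61 and the region was no longer called.

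Dlk1, a membrane ligand related to Notch ligands and expressed from the paternal copy, lies in the same cluster and was not called. Its 3 usable probes gave 2140, 3820 and 10800 at 32 months, against 1640, 4680 and 15400 at 3 months. The log2 ratios were 0.52, -0.15 and -0.37, with a median of -0.15 (SD 0.47). The first was higher and the others lower at 32 months, so the probes did not share a direction. Its other probe, with 54.2 at 32 months and 62.2 at 3 months, was not above background at either age. The brightness of Dlk1 was 88.6 at both ages.

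Igf2r encodes the receptor that clears insulin-like growth factor 2 and is expressed from the maternal copy in mouse tissues, where its control region lies in an intron. Its promoter region had only 2 probes. The first gave 3660 at 32 months and 699 at 3 months, and the second gave 193 and 110 at the same ages. The log2 ratios were 2.53 and 0.95, with a median of 1.74 (SD 1.12), which ranked 174 from the top. Both probes were higher at 32 months, but by different amounts. The first stood at percentile 90.4 at 32 months and 75.4 at 3 months.

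Zrsr1 encodes a splicing factor-related protein and sits within an intron of Commd1, which regulates copper handling and NF-kappaB. In the mouse the promoter of Zrsr1 is a germline control region methylated on the maternal copy. Its first probe spans a RefSeq start site, from base -2 to base 49, and gave 365 at 32 months and 130 at 3 months. The second gave 170 at 32 months and 67.2 at 3 months, the younger value not well above background. On the centred scale this probe was thus at least 2.79-fold higher at 32 months, but its log2 ratio with normexp was 0.05. The third gave 1510 at 32 months and 955 at 3 months. Log2 ratios of 1.63, 1.48 and 0.80 had a median of 1.48 (SD 0.44), which is the second probe's value and so a bound. All 3 probes were higher at 32 months. With normexp the median was 0.49 and the region was no longer called.

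The host gene Commd1 went the other way over its usable probes. Its region inside the gene, at 22878794 to 22879982, had a median of -0.66 (SD 0.65) over 3 usable probes, from -1.47 to -0.20. That median is the value of a probe not above background at 32 months. The region was not called lower, and its median was -0.14 with normexp. The region between Commd1 and Cct4, annotated as a divergent promoter, had a median of 0.11 over 2 usable probes at -0.45 and 0.67. Within 18456 bp the locus thus held a region called higher, 1 with all usable probes below 0 and 1 with probes on both sides of 0.

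**Figure D2:**
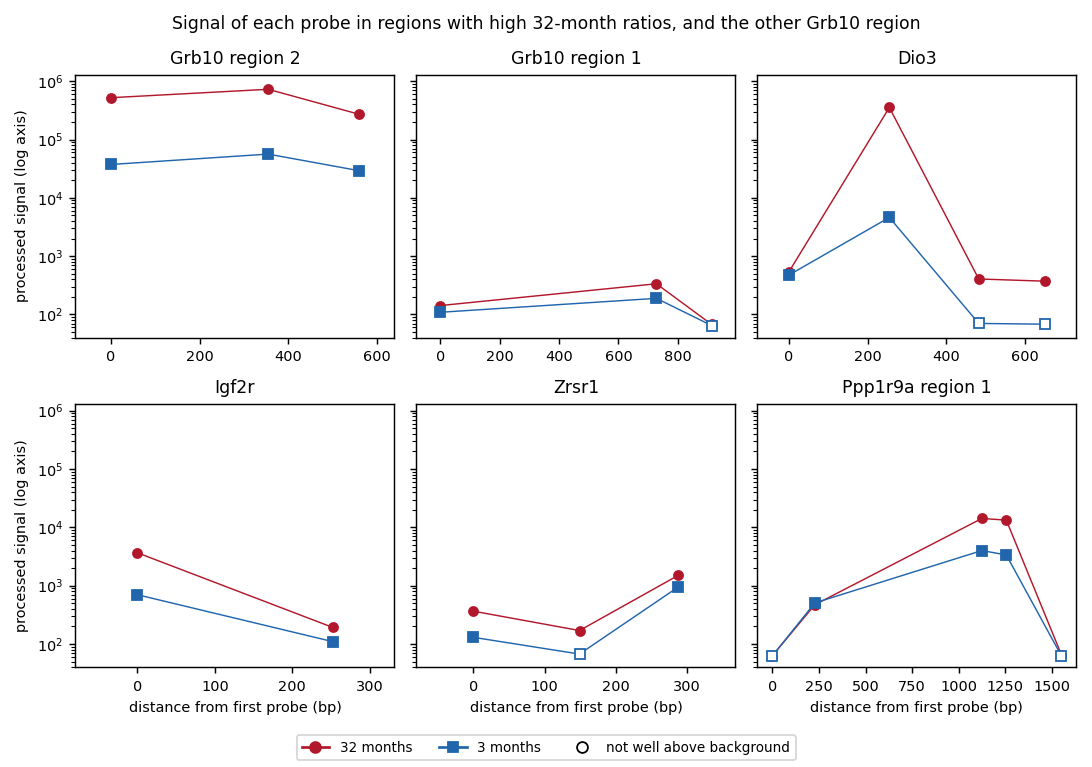
Processed signal (log axis) of each unflagged probe against its distance from the first probe of the region, at 32 months (red circles) and 3 months (blue squares). Open symbols were not well above background. Grb10 region 2 is raised at all 3 probes, Dio3 most at the second probe, and Ppp1r9a region 1 at probes 3 and 4 only.

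Ppp1r9a, which encodes the actin-binding protein neurabin and lies in the Peg10 cluster on chromosome 6, came closest to a call without one. Of the 5 probes of region 1, probes 3 and 4 gave 14200 and 13300 at 32 months, against 4000 and 3360 at 3 months. Their log2 ratios were 1.82 and 1.98. Probe 2, which starts 896 bp before probe 3, gave 471 at 32 months and 506 at 3 months, a ratio of -0.11, and the outer 2 were not above background. The median of 1.82 passed the threshold but the probes did not agree in sign, and the region was called with normexp and when probes were joined at 500 bp. With dim probes kept its median was 0.06. Region 2 of the gene had a median of -0.03 (SD 0.09).

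Gnas encodes the stimulatory G protein alpha subunit and, from alternative promoters, several imprinted transcripts. Its 3 regions all had medians above 0, none of them called. Region 3, with brightness 99.4 at both ages, gave 263000, 601000, 103000 and 1540 at 32 months, against 130000, 261000, 65800 and 1060 at 3 months. All 4 probes were higher at 32 months, with log2 ratios of 1.01, 1.20, 0.64 and 0.53 and a median of 0.83 (SD 0.31). It was called with normexp, at 1.31, and with probes joined at 500 bp, at 1.01.

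Region 1 of Gnas gave 2030, 143, 201 and 785 at 32 months, against 1310, 56.8, 157 and 341 at 3 months. Its log2 ratios were 0.63, 1.33, 0.35 and 1.20 (median 0.91, or 0.36 with normexp, SD 0.46). The second was at least 2.51-fold higher on the centred scale because its 3-month signal was not well above background. With normexp the log2 ratio of that probe was 0.10. A further probe was not above background at either age. In region 2 the probe at the far end stood alone, with 9830 at 32 months and 1700 at 3 months, a log2 ratio of 2.53. Its other probes gave 288, 550, 86.3 and 1660 at 32 months, against 287, 473, 62.2 and 1080 at 3 months, and the median was 0.47 (SD 1.01). That median is the value of the probe with 86.3 at 32 months and 62.2 at 3 months, the younger value not well above background, and so is a bound. All 13 usable Gnas probes therefore had ratios above 0, by amounts that differed between and within regions. The smallest, 0.00063 at the first probe of region 2, stands for nearly equal signals.

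Cdkn1c encodes p57Kip2, an inhibitor of cyclin-dependent kinases that restrains growth and is expressed from the maternal copy. It was among the brightest regions on its array, at percentile 99.7 at 32 months and 99.8 at 3 months. The 7 probes gave 259000, 161000, 113000, 436000, 337000, 304000 and 421000 at 32 months. At 3 months the same probes gave 147000, 100000, 75700, 304000, 278000, 253000 and 318000. Every probe was higher at 32 months, by log2 ratios of 0.26 to 0.81 (median 0.52, SD 0.21), which is a 1.43-fold difference and not a call. With normexp, which leaves out the scaling between dyes, the median was 1.02 and a call, while loess on brightness gave 0.24. The other imprinted regions with brightness of at least 90 at both ages also rose with normexp, such as Nnat from -0.02 to 0.40.

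Bright regions made up a larger share of the listed imprinted regions than of all measured regions. Levels also depend on probe sequence and the genes were chosen with earlier results known, so these shares describe the list only. Brightness of at least 90 at both ages was found in 6 of 40 measured imprinted regions (15%), against 594 of all measured regions (3.87%). These were Grb10 region 2, Cdkn1c, Gnas region 3, Mest region 1, Slc38a4 region 1 and Nnat. Of 26 measured regions of further imprinted genes and cluster neighbours, described below, 0 were as bright. Of the 594 bright regions of all genes 14.3% were called higher, so calls were more frequent among bright regions in general. Among single probes 35 of 198 unflagged member probes reached 90 at both ages (17.7%, against 8.76% of all), and they lay in 15 regions of 14 genes or gene pairs.

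**Figure D3:**
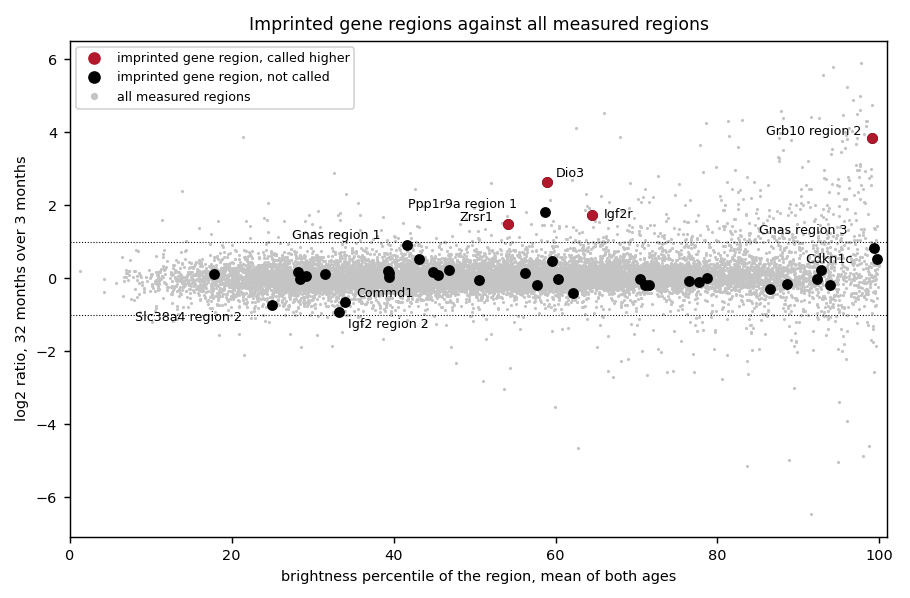
Log2 ratio of 32-month over 3-month signal against brightness percentile (mean of both ages) for the measured imprinted gene regions (red where called higher, black otherwise) over all 15352 measured regions (grey). Dotted lines mark -1 and 1. Grb10 region 2 and Cdkn1c are both among the brightest regions, with log2 ratios of 3.83 and 0.52.

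Mest, a paternally expressed gene of the hydrolase family whose promoter is methylated on the maternal copy, had a bright promoter region. Its 5 probes gave 4450, 6070, 7350, 9740 and 9310 at 32 months, against 4170, 6840, 8400, 10900 and 11400 at 3 months. The log2 ratios ran from -0.30 to 0.09 with a median of -0.18 (SD 0.14). The probes lay at percentiles 89.9 to 94.8 at 32 months and 89.4 to 95.9 at 3 months. Region 2, inside the gene, had 4 usable probes at 98.2, 662, 500 and 986 at 32 months, against 61.3, 708, 452 and 842 at 3 months, and a median of 0.18 (SD 0.32).

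Nnat, a small paternally expressed membrane proteolipid, also differed little between the ages. Its 6 probes gave 5910, 7080, 6110, 6410, 13100 and 757 at 32 months, against 6440, 6900, 5790, 5130, 14800 and 792 at 3 months. The median was -0.02 (SD 0.18), and brightness was 92.4 at 32 months and 92.3 at 3 months. Its ratios ran from -0.18 to 0.32, on both sides of 0.

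Slc38a4 encodes an amino acid transporter. Region 1, inside the gene, gave 5690, 16500 and 55.8 at 32 months, against 5350, 15500 and 65 at 3 months, with a median of 0.23 (SD 0.18). The last probe there was not above background at 32 months. Region 2 held the lowest ratio of any usable member probe, -2.01, from 271 at 32 months and 1200 at 3 months. Its median was -0.73 (SD 0.90), the value of a probe not above background at 32 months, and it was called lower when the mean over probes, -1.01, replaced the median and when probes had to be above background at both ages, at -1.14. Region 3, at the promoter, had a median of 0.05 (SD 0.49).

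Peg10, a retrotransposon-derived gene needed for the placenta, and Sgce, which encodes epsilon-sarcoglycan, are paternally expressed neighbours. The 2 probes of Peg10 gave 587 and 340 at 32 months, against 425 and 379 at 3 months. Log2 ratios of 0.46 and -0.16 gave a median of 0.15. Sgce had a median of -0.08 (SD 0.10) over 4 probes, with brightness of 76.3 at 32 months and 76.8 at 3 months. Neither differed in 1 direction over all its probes.

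Plagl1 encodes a zinc finger transcription factor that restrains the cell cycle. Its 3 usable probes gave 65, 798 and 492 at 32 months, against 73.4, 963 and 494 at 3 months. The median was -0.04 (SD 0.13), which places this gene at the middle of the array.

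In the Peg3 cluster on chromosome 7, 6 probes within 1221 bp carried the names of Peg3, a zinc finger gene, the shared promoter and Usp29, a ubiquitin-specific protease. The probe of Peg3 gave 553 at 32 months and 633 at 3 months, a log2 ratio of -0.20. The probe at the shared promoter, printed above, gave 1100 and 999 at the same ages, a ratio of 0.13. With 1 probe each, these are values of a probe and not measured regions. The 4 probes of Usp29 gave 311, 901, 349 and 1170 at 32 months, against 410, 849, 468 and 2610 at 3 months, with a median of -0.42 (SD 0.51). The last, farthest from the promoter, was the lowest at -1.16. Zim1, a maternally expressed zinc finger gene of the same cluster, had a median of 0.14 (SD 0.31).

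The Prader-Willi and Angelman region on chromosome 7 was represented by Snurf, Ndn, Mkrn3 and Ube3a. Snurf, which shares its promoter with Snrpn in a control region methylated on the maternal copy, had 2 usable probes of 6. They gave 1560 and 12700 at 32 months, against 1130 and 14800 at 3 months, with log2 ratios of 0.46 and -0.23. A probe of Snurf also lies in the RefSeq promoter window of Snrpn, from base -163 to base -104, and was not above background at either age, with 59 at 32 months and 57.1 at 3 months.

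The other genes of that region also differed little between the ages. Ndn, which encodes the growth suppressor necdin, had a median of -0.18 (SD 0.23). Mkrn3, a ring finger gene expressed from the paternal copy, had a median of 0.03 (SD 0.28). Ube3a, the ubiquitin ligase expressed from the maternal copy in neurons, had a median of -0.17 (SD 0.18). All 3 had probes on both sides of 0.

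Igf2, the paternally expressed growth factor of the distal chromosome 7 cluster, had the lowest regional median of the imprinted genes. The first probes of its promoter region 2 gave 5550 and 7330 at 32 months, against 11400 and 13800 at 3 months, and a further usable probe gave 227 and 254. Log2 ratios of -1.04, -0.92 and -0.17 had a median of -0.92 (SD 0.47), which ranked 194 from the bottom and was short of the threshold of -1. The remaining 3 probes of that region were not above background. Region 1, inside the gene, gave 2230, 10600, 1050 and 345 at 32 months, against 2510, 12600, 1070 and 357 at 3 months, with a median of -0.11 (SD 0.10). All 7 usable Igf2 probes were lower at 32 months and only the first of region 2 passed -1, but with normexp the medians were -0.41 for region 2 and 0.21 for region 1. With dim probes kept region 2 was at -0.09.

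Kcnq1, a potassium channel gene whose intron holds the control region of the neighbouring cluster, also had all 5 probes below 0. Its first promoter probe was very bright, with 76500 at 32 months and 117000 at 3 months, a log2 ratio of -0.62. The median was -0.28 (SD 0.21), or 0.15 with normexp, and brightness was 85.5 at 32 months and 87.4 at 3 months. Of the other genes in that cluster, Phlda2, a placental growth suppressor, had 0.19 (SD 0.24), Slc22a18, an organic cation transporter, -0.02 (SD 0.27) and Tssc4 0.02 (SD 0.27). The cluster thus held Cdkn1c above 0, Kcnq1 below it and 3 genes near it.

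**Figure D4:**
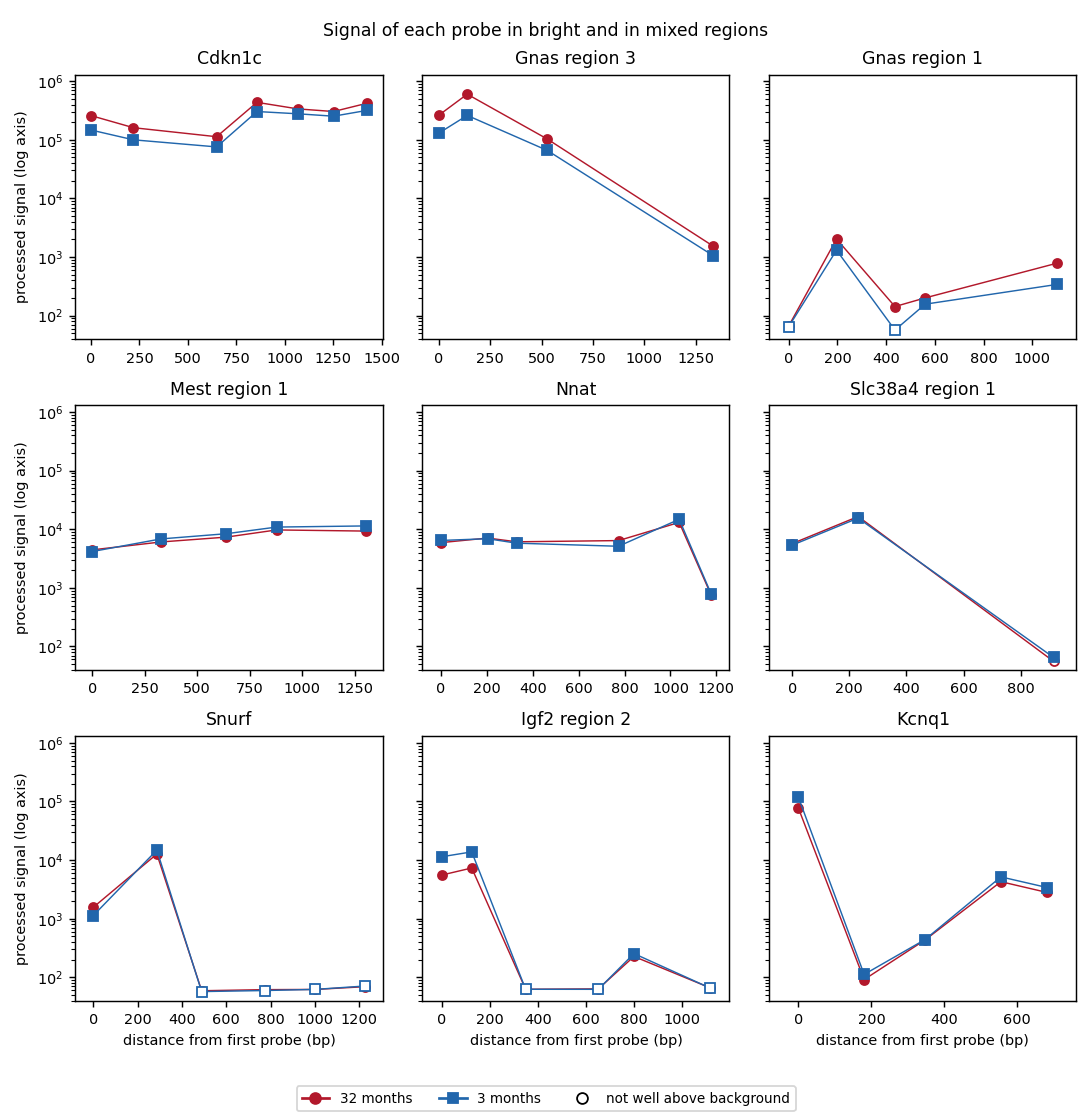
Processed signal (log axis) of each probe against its distance from the first probe of the region, at 32 months (red circles) and 3 months (blue squares), with open symbols where not well above background. The curves of the ages run nearly together in Mest region 1, Nnat, Slc38a4 region 1 and Snurf, while Cdkn1c and Gnas region 3 are higher at 32 months at every probe and the first 2 probes of Igf2 region 2 are lower.

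The remaining imprinted genes had medians close to 0. Rasgrf1, a Ras exchange factor with a paternally methylated control region far upstream, had -0.03 (SD 0.25) over 6 usable probes. Impact, a regulator of translation, had -0.17 (SD 0.21), and Nap1l5, a nucleosome assembly protein, 0.08 (SD 0.23). H13, a signal peptide peptidase, had 0.17 (SD 0.15) and Dcn, the proteoglycan decorin, 0.23 (SD 0.39). None of these 5 had a usable probe beyond 1 in either direction.

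By known role of the gene, calls were spread over several groups, to be read beside the 2.01% of all regions called higher. Among genes with a maternal germline imprint at the promoter or 5′ region, 2 of 16 measured regions were called higher (Grb10 region 2 and Zrsr1), with a median of 0.06. Among genes of domains with a paternal germline imprint it was 1 of 5 (Dio3), with a median of -0.11. Host or mixed genes with an imprint elsewhere in the gene had 1 of 8 (Igf2r) and a median of 0.32, and other genes of imprinted domains 0 of 11 and a median of 0.03. With 5 to 16 regions a group, the counts do not set 1 role apart from another. All 4 calls lay on the second array, and the groups were not split by array.

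Brightness largely kept its order between the ages. Over the 40 measured regions the Spearman correlation of brightness between the ages was 0.97, and over all measured regions it was 0.96. Taken over single probes of all genes, the correlation was 0.978 for array 1. For array 2, which holds every called region, it was lower, at 0.942. Whether this lower value bears on the calls was not tested. These correlations are descriptions over regions or probes that share 2 hybridisations. The largest differences in percentile belonged to Zrsr1, with 65 at 32 months and 43.3 at 3 months, and Dio3, with 68.9 at 32 months and 49 at 3 months. Within a region brightness varied widely. The median span from the dimmest to the brightest probe was 58.2 percentile points at 32 months and 61.9 at 3 months for imprinted regions, against 55.2 and 56.1 for all regions.

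**Figure D5:**
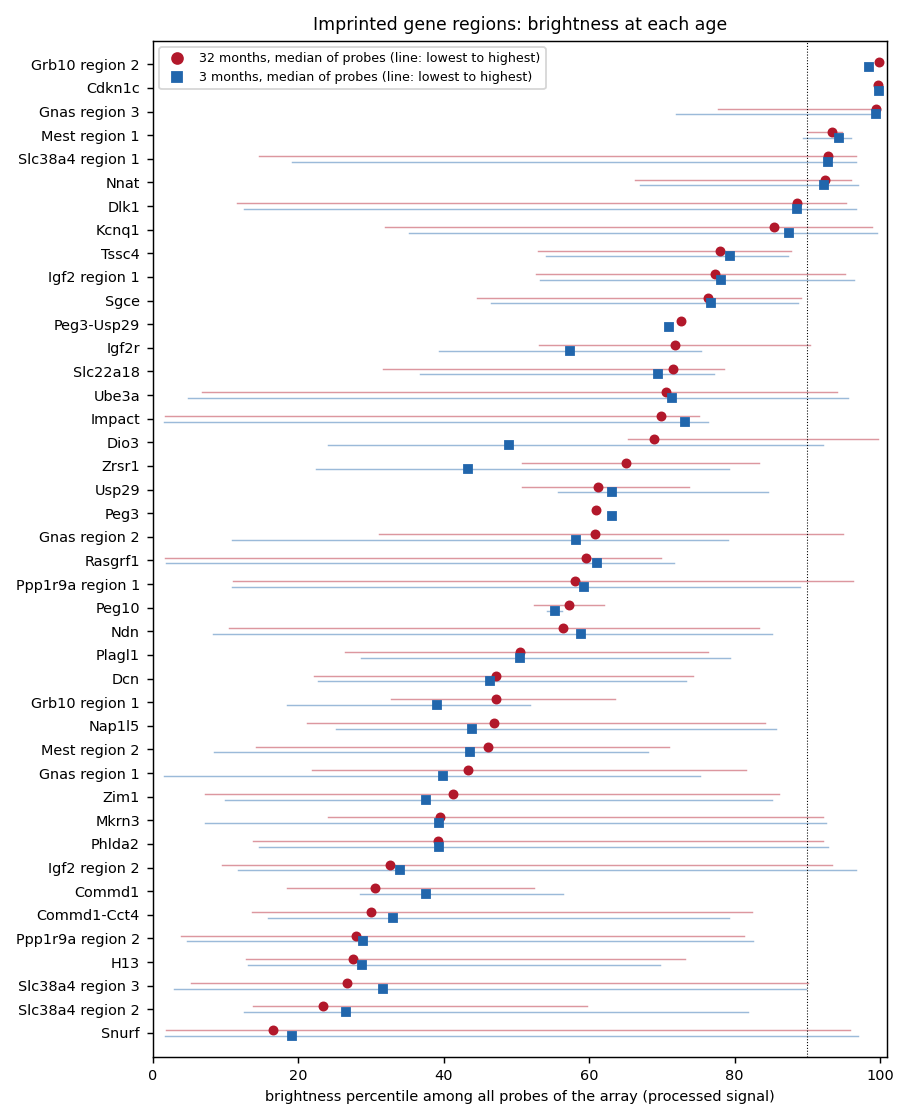
Brightness percentile of each imprinted gene region at 32 months (red circles) and 3 months (blue squares), as the median over probes, with lines from the lowest to the highest probe. The dotted line marks percentile 90. Cdkn1c and Grb10 region 2 are bright at all probes, whereas Snurf has a low median and a line that reaches 95.9 at 32 months.

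Of 44 further imprinted genes and cluster neighbours 28 were on the arrays, with 0 of 26 measured regions called, beside 2.01% of all regions called higher, and a median of 0.02. Near Igf2r, the transporter genes Slc22a3 and Slc22a2 had medians of -0.44 (SD 0.59) and -0.18 (SD 0.82). Between Dlk1 and Dio3, the retrotransposon-derived Rtl1 had 0.19 (SD 0.19) and 0.08 (SD 0.57) in its 2 regions. On the same part of chromosome 7 as Cdkn1c, Ascl2, a transcription factor of intestinal stem cells and placenta, had 0.31 (SD 0.16). The tetraspanin gene Tspan32 had 0.83 (SD 0.53), with all 10 usable probes above 0. Cd81 beside it had -0.49 (SD 0.98), Ins2 -0.27 (SD 0.30) and Th -0.04 (SD 0.20). Closer to Cdkn1c, Nap1l4 had 0.08 (SD 0.36), Tnfrsf23 0.03 (SD 0.26) and Osbpl5 -0.0044 (SD 0.23).

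Of 22 genes that set or keep imprints 15 were on the arrays, with 16 measured regions and a median of 0.17. None of those regions was called, beside 2.01% of all regions called higher and 0.632% called lower. A promoter region of Dnmt3a, the DNA methyltransferase that lays down imprints in germ cells, had a median of 1.22 with probes from -0.80 to 2.60, so its probes did not agree. Markers of the cell types that intestine can hold were measured in the same way. The median log2 ratio was 0.04 for intestinal epithelium (11 regions), -0.10 for immune cells (12), 0.10 for smooth muscle and stroma (11) and 0.05 for enteric neurons and glia (7). None of these marker regions was called in either direction, beside the same shares of all regions. With so few regions, such a count says little. Single regions ran from a median of -0.53 at S100b (SD 1.16) to 0.98 at Tagln (SD 1.75), where all usable probes lay above 0. A shift in the cell types of the sample was not tested.

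Trappc9 appears on the second array under the name 1810044A24Rik, which RefSeq lists as a synonym and which the choice of genes by listed name did not take in. Its 2 regions had medians of -0.10 (SD 0.72) and 0.97 (SD 0.52), and neither was called.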

How the data were processed

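Genomic DNA from mouse intestine aged 32 and 3 months was measured on 2 custom 2-colour arrays (4 sample records). Per the submitters' processing notes, Agilent Feature Extraction 9.1.3.1 was used. The deposited intensity values taken here are the scanner's processed signals, background-subtracted and scaled between dyes per the file headers. The files of a pair of records hold the same array, so each channel was used once. The authors' value table equalled those intensities in 100% of spots. The authors' files also hold a log10 ratio per spot, used in 1 alternative. No column was left unmatched (0).

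Control spots and outlier-flagged spots were left out, as were 271 of 83122 probes without a position. Log2 ratios were centred on each array's median, 0.0044 for the first and -0.14 for the second. Precision is limited by the single hybridisation per array, and by background: 70.1% to 72.5% of probes were well above it per array and age, and the lowest 3-month signals so marked were 53.2 and 51.3. A bound ("at least") uses the higher of that lowest signal and the dim probe's own, on the centred scale. It holds for the processed signals only, and normexp gave smaller ratios for the probes described with it. No probe was saturated. No p-value was computed.

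The listed genes, the further gene lists and the naming rule were chosen with earlier results of these data known. By that rule all listed genes present were named, and probe values were given for called regions, regions with brightness of at least 90 in either sample and 13 genes fixed by name, of which Snrpn has no probe. Positions have no stated build, so RefSeq (GRCm38.p6) served for symbols and promoter windows only. Python 3.11.15 (pandas 2.3.3, numpy 2.4.6, statsmodels 0.14.6, matplotlib 3.10.9) and R 4.3.3 with limma 3.58.1 were used. Alternatives were uncentred ratios, loess on brightness (span 0.3), normexp with an offset of 50, other probe filters, means over probes, the scanner's ratio, a 500 bp join, a 1.5-fold threshold, no demand for agreement and other brightness ranks. Normexp took the scanner's mean signals before scaling between dyes, and its ratios were only centred on the array median. Its values therefore differ from the main ones in 2 steps, background and dye scaling.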

Additional observations from a re-analysis of the deposited data

How the results depend on the processing

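Giving shared names to each gene and taking each array alone were chosen after seeing the data, and the other alternatives were planned. The 4 calls became 5 with normexp (Dio3 and Zrsr1 lost, at 0.61 and 0.49, and Cdkn1c, Gnas region 3 and Ppp1r9a region 1 gained; 2.75% of all regions higher), 6 with probes joined at 500 bp (2.29% of all) or a 1.5-fold threshold (4.42%), 5 with no demand for agreement (2.98%), and 0 on the first array alone (1.36%). Against a main count of 0, lower calls numbered 1 with probes above background at both ages (0.625% of all), 1 with means over probes (0.717%) and 3 at 1.5-fold, where 2.24% of all regions were called lower. Over the settings that recompute the ratio, Grb10 region 2 ran from 3.69 to 4.77 and Igf2r from 1.24 to 1.74. The median over imprinted regions, 0.065, was 0.030 uncentred, 0.081 with loess, 0.21 with normexp (0.11 over all regions), 0.092 with probes above background at both ages, 0.0064 with dim probes kept, 0.029 with the scanner's ratio, 0.092 at 500 bp, 0.053 with shared names, 0.034 for the first array alone and 0.11 for the second. Of 440 ratios of imprinted regions under the alternatives, 425 kept their call or lack of one and 13 gained a call. A further 2 lost their call and 0 of the called values changed sign. These counts include settings that change the rule or the names and leave the ratios as they were, such as the 1.5-fold threshold. Of 160 brightness values 159 moved by less than the spread over probes. No paired analysis was possible because each age has 1 sample per array. Low signal limits the dim probes most, and no replicate shows how far any value would vary between animals.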
